A study of Mus musculus with 12 samples.

Results

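The 10 genes described here encode proteins of the cardiac Z-disc: Ldb3, Actn1, Actn2, Tcap, Csrp3, Myoz2, Xirp1, Xirp2, Pdlim5 and Synpo2l. They were chosen by name and matched by symbol to Ensembl identifiers, and all 10 were found among the 43629 identifiers counted. RNA sequencing counts were available for 12 mouse libraries of the C57BL/6 strain, 3 in each of 4 groups. Embryonic fibroblasts were taken 3 weeks after an empty vector (E), after 4 transcription factors (GHMT, standing for Gata4, Hand2, Mef2c, Tbx5), or after those 4 plus Akt, which the series title names Akt1 (AGHMT). The last group (CM) held ventricular cardiomyocytes isolated from adult mice, whose labels name no vector. GHMT and AGHMT cells were sorted on green fluorescence driven by the promoter of Myh6, which encodes alpha myosin heavy chain. No sort is named for E or CM, so in each comparison with E the factors and the sort cannot be told apart. The labels do not say whether replicates were separate cultures or animals, and p-values therefore measure only the spread between these libraries, which may be technical. In bulk RNA, fewer cells of a type and less RNA per cell cannot be told apart.

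The Z-disc is the boundary of the sarcomere, where actin filaments of opposite polarity are cross-linked by alpha-actinin. Actn2 encodes the sarcomeric alpha-actinin and Actn1 a non-muscle form found in focal adhesions and stress fibres. Ldb3 (Cypher or ZASP) and Pdlim5 (ENH) are PDZ and LIM domain proteins that bind alpha-actinin, and Myoz2 (calsarcin-1) ties alpha-actinin to calcineurin. Csrp3 (muscle LIM protein) and Tcap (telethonin, which caps the titin N-terminus) belong to the titin-anchored complex. Xirp1 and Xirp2 are Xin-repeat actin-binding proteins that in the heart lie largely at the intercalated disc, and Synpo2l (CHAP) is an alpha-actinin-binding relative of synaptopodin.

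The libraries differed in depth. A GHMT library had 1872558 to 2200815 gene reads, an AGHMT library 14386407 to 18493989, a CM library 5120230 to 15952646 and an E library 15971154 to 33552138. Mitochondrial transcripts took 3.6% to 7.4% of the reads in E, 27.8% to 72.2% in GHMT, 36.6% to 42.7% in AGHMT and 40% to 59.9% in CM, so they moved with every comparison against E; their part in those differences was not tested beyond scaling without them. The shallowest library, GHMT 1, had 612458 reads from other genes. A count of 3 reads corresponded to 1.56 to 3.93 CPM (read counts scaled to the size of each library) in GHMT but to 0.164 to 0.231 CPM in AGHMT, so low members were measured far less precisely in GHMT. Akt1 itself stood at 13 CPM in the AGHMT libraries (7.3 to 19.6), at 9.53 CPM in GHMT (1.31 to 13.7) and at 62.9 CPM in E (21 to 104), and no difference was detected between AGHMT and GHMT (log2 fold change 0.34, SE 0.79, adjusted p = 0.786 by edgeR's quasi-likelihood test). Of the other forced genes, Gata4 (0.174 CPM in E, 7.92 in GHMT), Mef2c (15 and 218) and Tbx5 (4.07 and 154) were higher in GHMT than in E with adjusted p = 0.000243, 1.5e-06 and 1.09e-07, and Hand2 (2.27 and 5.17) did not pass (adjusted p = 0.166). Akt1 as counted therefore did not follow the label, and the libraries are called AGHMT-labelled below; every direction drawn from them rests on that label. Whether reads from the vector's Akt would count toward the mouse Akt1 gene is not stated in the sources used here. The summed CPM of 7 cardiomyocyte markers ran from 6.66 to 12.9 in E, 625 to 1090 in GHMT, 3570 to 4020 in AGHMT-labelled cells and 21300 to 43300 in CM. That of 8 fibroblast markers ran from 12600 to 21000, 2220 to 4000, 5190 to 6080 and 383 to 401 in the same order, so fibroblast transcripts were present in both sorted groups. The sum of 9 skeletal muscle markers was 0.27 to 0.886 CPM in E, 0 to 8.25 in GHMT, 10.6 to 22.3 in AGHMT-labelled cells and 6.01 to 7.35 in CM. Most of it in AGHMT-labelled cells came from Tnnt3, fast skeletal troponin T, at 15 CPM against 0.383 in E (adjusted p = 0.000744), while Myod1, Myf5 and Tnnc2 had no reads in any group.

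Promoter sequence from RefSeq (GRCm38.p6) was available for 8 of the 10 members, in 12 windows of the 250 bases before a start site. For members with several starts the most upstream one is used. The windows of 6 members are shown to set the pair of alpha-actinins and Ldb3 beside the 3 members whose rise from GHMT to AGHMT-labelled cells held in every alternative tried (below). Capitals mark matches on either strand to GATAAG (the GATA motif), GGTGTG (T-box), TAATTA (homeobox), the MEF2 motif or the CArG motif. The E-box CANNTG was searched too but is left in lower case, since 66.2% of all 32851 windows hold it. Each window is written 5′ to 3′ on the gene's strand and ends at the base before the start site.
Ldb3: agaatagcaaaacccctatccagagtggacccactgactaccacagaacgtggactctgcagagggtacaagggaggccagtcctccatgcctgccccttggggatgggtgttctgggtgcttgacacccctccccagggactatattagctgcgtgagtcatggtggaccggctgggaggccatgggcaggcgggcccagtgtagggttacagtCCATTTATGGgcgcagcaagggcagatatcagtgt
Actn2: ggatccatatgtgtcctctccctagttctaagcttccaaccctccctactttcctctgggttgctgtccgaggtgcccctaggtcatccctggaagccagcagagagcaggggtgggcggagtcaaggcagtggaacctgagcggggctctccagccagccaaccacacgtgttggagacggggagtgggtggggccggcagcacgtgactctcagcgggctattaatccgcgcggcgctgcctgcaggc
Actn1: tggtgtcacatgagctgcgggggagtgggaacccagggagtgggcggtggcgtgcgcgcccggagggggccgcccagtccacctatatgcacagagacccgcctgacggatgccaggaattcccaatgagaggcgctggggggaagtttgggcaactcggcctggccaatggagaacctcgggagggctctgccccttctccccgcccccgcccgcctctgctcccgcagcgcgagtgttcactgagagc
Myoz2: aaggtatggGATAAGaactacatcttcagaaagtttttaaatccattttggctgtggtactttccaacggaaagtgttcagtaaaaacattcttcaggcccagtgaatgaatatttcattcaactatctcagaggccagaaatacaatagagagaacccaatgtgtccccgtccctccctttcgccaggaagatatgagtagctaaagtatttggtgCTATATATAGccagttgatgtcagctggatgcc
Xirp2: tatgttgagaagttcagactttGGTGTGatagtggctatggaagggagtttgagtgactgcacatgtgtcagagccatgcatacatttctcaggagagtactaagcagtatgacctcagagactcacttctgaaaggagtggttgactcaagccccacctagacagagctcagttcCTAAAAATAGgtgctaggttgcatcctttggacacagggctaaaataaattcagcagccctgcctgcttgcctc
Synpo2l: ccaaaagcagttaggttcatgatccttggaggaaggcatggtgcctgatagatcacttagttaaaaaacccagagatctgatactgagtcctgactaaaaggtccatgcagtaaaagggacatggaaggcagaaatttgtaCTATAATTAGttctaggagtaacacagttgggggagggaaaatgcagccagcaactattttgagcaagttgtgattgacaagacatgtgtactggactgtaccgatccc

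The Ldb3 window (chr14:34588682-34588931, minus strand) held 1 CArG match, 35 bases before the start, a motif present in 1.47% of all windows. Neither the Actn2 window (chr13:12340733-12340982, minus strand) nor the Actn1 window (chr12:80260364-80260613, minus strand) held a match in capitals. The Myoz2 window (chr3:123034988-123035237, minus strand) held a MEF2 match 33 bases and a GATA match 241 bases before the start. The Xirp2 window (chr2:67445752-67446001, plus strand) held a MEF2 match 74 bases and a T-box match 228 bases before the start. In the Synpo2l window (chr14:20668355-20668604, minus strand) a MEF2 match 109 bases before the start overlapped the homeobox match, and the window of its second start (chr14:20664575-20664824) held a MEF2 match 144 bases and a T-box match 68 bases before that start. A MEF2 match thus occurred for 3 of the 8 members with a window, a member counting if any of its windows matched. Among all windows, 2.92% held a MEF2 match. That is a share of windows and not of genes, so it cannot be set directly against the count of members. GATA, T-box and homeobox matches occurred in 6.55%, 16.3% and 4.84% of all windows. Among the members not shown, Csrp3 was also called higher in AGHMT-labelled cells than in GHMT, and neither of its windows held a match other than the E-box. The bases just after either Csrp3 start were found in no GENCODE transcript of the gene, while those after every other start searched were. The Csrp3 windows may thus be misplaced. A Pdlim5 window (chr3:142391851-142392100) held a homeobox match. The windows shown were picked partly by the results below, and whether a motif goes with the rise was not tested. All these are matches of letters and not measured binding.

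The set did not move as a block (plot of members by library). Ldb3 and Pdlim5 already overlapped or exceeded CM in GHMT, 5 members (Actn2, Csrp3, Myoz2, Xirp2 and Synpo2l) stepped up from E through GHMT and AGHMT-labelled cells to CM, Tcap and Xirp1 were near 0 outside CM, and Actn1 was lowest in CM. All 10 passed the filter on low counts, which was set over all 12 libraries. In the comparison of CM with E, 9 members passed as higher and 1 as lower at an adjusted p under 0.05, against 19.5% of 15059 genes higher and 22.5% lower. For GHMT, 8 lay above E and 0 below (19.8% and 32.9% of all genes), with a median log2 fold change of 3.79 against −1.06 over all genes. GC correction moved that all-gene median to 0.25 and the share of higher calls from 37.6% to 72.3%, and total counts moved them to −2.38 and 12%; the members passing were then 9 and 5, all higher. With only the GHMT and E libraries filtered and fitted, Actn2, Csrp3 and Synpo2l fell under the filter. They thus entered this comparison through the AGHMT-labelled and CM libraries. In that fit 5 members passed, all higher, while 2042 of 12341 genes were higher and 4271 lower. In AGHMT-labelled cells against E, 9 were higher and 0 lower (21.9% and 24.6%), with a median of 6.38 against −0.16. The rise over E in AGHMT-labelled cells was 111-fold for Actn2, 89.2-fold for Csrp3, 141-fold for Myoz2, 367-fold for Xirp2 and 58.4-fold for Synpo2l. These comparisons share the E libraries. Between the sorted groups, 5 members were higher and 2 lower in AGHMT-labelled cells than in GHMT (13.2% and 4.58% of all genes), with a median of 2.04 against 0.63, or 1.60 with Xirp1, unread in GHMT, at its lower bound. Without GHMT 1 and CM 3, a choice made after the data were seen, these counts were 4 and 1. CM exceeded GHMT for 7 members and was below it for 2 (34.7% and 23.8%), and exceeded AGHMT-labelled cells for 7 and was below them for 1 (24.4% and 23.7%).

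**Figure D1:**
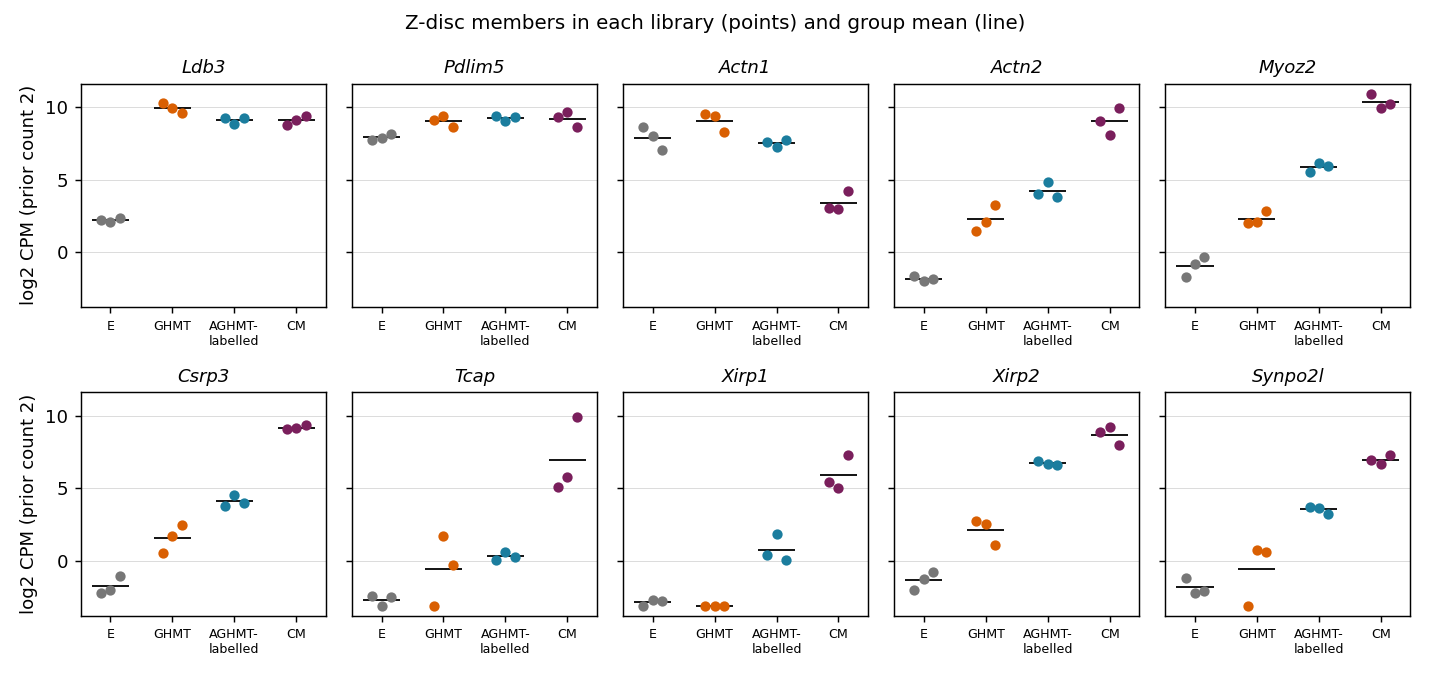
Level of each member on the log2 CPM scale (prior count 2, y axis) in the 3 libraries of each group (points, x axis), with the group mean as a line. Ldb3 reaches the CM level in GHMT, Myoz2, Xirp2 and Synpo2l climb by steps, Xirp1 has no read in GHMT, and Actn1 is lowest in CM.

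Among the PDZ and LIM proteins, Ldb3 had the sharpest difference between E and every other group. Its CPM was 4.57, 4.16 and 5.04 in the E libraries, 1280, 982 and 794 in GHMT, 625, 463 and 614 in AGHMT-labelled cells, and 441, 546 and 673 in CM. Every GHMT library lay above every AGHMT-labelled and CM library, while the last 2 groups overlapped. Against E, Ldb3 was 221-fold higher in GHMT (log2 fold change 7.79, SE 0.36, adjusted p = 3.13e-09), 123-fold in AGHMT-labelled cells (6.95, SE 0.35, adjusted p = 7.34e-09) and 120-fold in CM (6.91, SE 0.35, adjusted p = 2.76e-09). On the log2 scale GHMT had thus gone 113% and AGHMT-labelled cells 101% of the way from E to CM. CM and AGHMT-labelled cells differed by −0.04 (95% interval −0.61 to 0.54, adjusted p = 0.924), although with DESeq2's size factors CM was higher by 0.75 (adjusted p = 0.0489). The lower level in AGHMT-labelled cells than in GHMT (−0.84, SE 0.27, adjusted p = 0.0451) kept its call in 8 of 24 alternatives and stood at −0.20 (adjusted p = 0.71) with total counts and at −0.44 (adjusted p = 0.256) without mitochondrial genes. Omitting GHMT 1 or 2, any AGHMT-labelled library, CM 1 or 2, or any E library also ended that call, with values from −0.91 to −0.18, the smallest without E 1. The lower level in CM than in GHMT (−0.88, adjusted p = 0.0129) was lost likewise, at −0.27 (adjusted p = 0.437) with DESeq2's size factors, at −0.67 without GHMT 1, −0.70 without CM 1, and −0.34 without either AGHMT-labelled 3 or E 1.

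Pdlim5 was abundant in fibroblasts as well. It stood at 217, 238 and 283 CPM in E, 566, 687 and 391 in GHMT, 691, 526 and 634 in AGHMT-labelled cells and 636, 815 and 402 in CM. GHMT, AGHMT-labelled cells and CM overlapped one another, and all their libraries lay above E. The rise over E was 2.23-fold in GHMT (log2 1.15, SE 0.31, adjusted p = 0.00643), 2.50-fold in AGHMT-labelled cells (1.32, SE 0.31, adjusted p = 0.00359) and 2.51-fold in CM (1.33, SE 0.31, adjusted p = 0.00275). With total counts in place of TMM scaling, which moves the median of all genes in GHMT against E from −1.06 to −2.38, the difference in GHMT was −0.24 (adjusted p = 0.59), and it was 0.59 (adjusted p = 0.185) without AGHMT-labelled 3 and 0.45 (adjusted p = 0.313) without E 1. AGHMT-labelled cells and GHMT differed by 0.17 (95% interval −0.48 to 0.82). CM differed from GHMT by 0.17 (adjusted p = 0.641) and from AGHMT-labelled cells by 0 (95% interval −0.64 to 0.65). With DESeq2's size factors CM was higher than both, by 0.71 (adjusted p = 0.0219) and 0.70 (adjusted p = 0.0276). Per kilobase of exon, Ldb3 stood at 0.0273 times the Pdlim5 level in E (0.0254 to 0.0306) and 2.77 times in GHMT (2.08 to 3.28). It stood at 1.33 times in AGHMT-labelled cells (1.28 to 1.41) and 1.47 times in CM (0.974 to 2.43). No scaling between libraries enters this ratio, which was taken up after the values were seen. A GC effect that differs between libraries (below) does not cancel in it, since Ldb3 has 49.8% GC and Pdlim5 44.1%. The part of GC in the ratio was not tested.

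The alpha-actinins changed places between fibroblasts and cardiomyocytes. Actn1 stood at 389, 256 and 130 CPM in E, 745, 668 and 309 in GHMT, 196, 150 and 213 in AGHMT-labelled cells, and 8.1, 7.75 and 18.7 in CM. Every CM library lay far below all others, and E overlapped both sorted groups. Actn1 was 22.7-fold lower in CM than in E (log2 −4.51, SE 0.51, adjusted p = 6.71e-06) and 16.4-fold lower in CM than in AGHMT-labelled cells (−4.03, SE 0.50, adjusted p = 3.41e-05). It was 3.08-fold lower in AGHMT-labelled cells than in GHMT (−1.62, SE 0.45, adjusted p = 0.0249), a call kept in 15 of 24 alternatives and lost with total counts (−0.98, adjusted p = 0.211). It was lost as well without GHMT 1 or 2, without any AGHMT-labelled library and without E 1, where values ran from −1.65 to −0.96. Its level in GHMT over E (1.15, SE 0.44, adjusted p = 0.0416) lost the call in 16 of 24 alternatives, among them the omission of GHMT 1 or 2 or of any AGHMT-labelled or E library (0.64 to 1.16), and was −0.34 with total counts. Between AGHMT-labelled cells and E the difference was −0.47 (95% interval −1.41 to 0.46).

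Actn2 ran the other way. Its CPM was 0.201, 0.135 and 0.153 in E, 2.62, 4.17 and 9.62 in GHMT (2, 8 and 14 reads), 15.7, 28.7 and 13.9 in AGHMT-labelled cells, and 527, 275 and 987 in CM. The 4 groups did not overlap. Actn2 was 32.8-fold higher in GHMT than in E (log2 5.03, SE 0.68, adjusted p = 5.43e-05) and 30.7-fold higher in CM than in AGHMT-labelled cells (4.94, SE 0.52, adjusted p = 7.16e-06). The step from GHMT to AGHMT-labelled cells was 3.39-fold (1.76, SE 0.55, adjusted p = 0.0387). It kept its call in 11 of 24 alternatives, was lost without GHMT 1 or 2, AGHMT-labelled 1 or 2, CM 1 or E 2 (1.37 to 1.90), and after correction for GC content it was 0.29 (adjusted p = 0.607).

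Within each library the share of Actn2 in the summed alpha-actinin signal of Actn1 and Actn2, both per kilobase of exon, needs no scaling between libraries. It was 0.108% ± 0.0552 in E, 1.92% ± 2.11 in GHMT, 13.6% ± 7.13 in AGHMT-labelled cells and 98.6% ± 0.44 in CM (SD, n = 3 each). The GHMT libraries lay at 0.511%, 0.902% and 4.35% and the AGHMT-labelled ones at 10.5%, 21.8% and 8.67%, without overlap (plot of the alpha-actinin share). The difference of 11.7 percentage points had p = 0.1 in an exact two-sided permutation test, the smallest p that 3 against 3 libraries can give. Leaving out each of the 6 libraries in turn gave 7.64 to 14.2 points. Even the highest AGHMT-labelled library was well under the lowest CM library, at 98.1%.

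**Figure D2:**
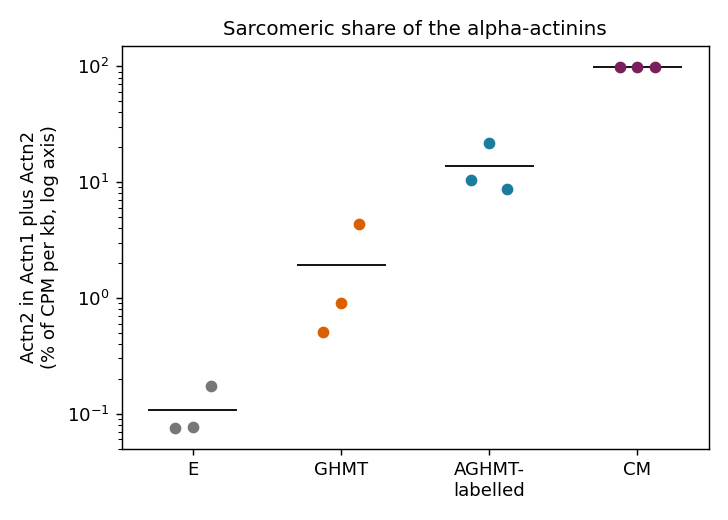
Share of Actn2 in Actn1 plus Actn2 (percent of CPM per kilobase, log axis) in each library (points) with the group mean (line). The groups order as E, GHMT, AGHMT-labelled and CM without overlap, and the CM libraries sit between 98.1% and 99%.

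Of the alpha-actinin and titin partners, Myoz2 and Csrp3 stepped up through the groups. Myoz2 stood at 0.184, 0.439 and 0.673 CPM in E, 3.93, 4.17 and 6.87 in GHMT (21 reads in all), 47.1, 69.9 and 60.8 in AGHMT-labelled cells, and 1950, 1010 and 1180 in CM. No groups overlapped, and Myoz2 had the highest CM mean of the 10 genes per kilobase of exon, 404 ± 146 CPM per kb (SD, n = 3), ahead of Tcap at 374 ± 565, whose libraries surround it. It was 12.1-fold higher in GHMT than in E (log2 3.59, SE 0.55, adjusted p = 0.000151), 11.7-fold higher in AGHMT-labelled cells than in GHMT (3.54, SE 0.47, adjusted p = 0.000513) and 23.3-fold higher in CM than in AGHMT-labelled cells (4.54, SE 0.42, adjusted p = 2.67e-06). The middle step kept its call in 24 of 24 alternatives and was 3.16 after GC correction (adjusted p = 0.00035).

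Csrp3 stood at 0.1, 0.135 and 0.367 CPM in E, 1.31, 3.13 and 5.5 in GHMT (15 reads in all), 13.9, 23.2 and 15.9 in AGHMT-labelled cells, and 543, 571 and 659 in CM. The groups did not overlap, and its CM spread was the tightest of the set, with a coefficient of variation of 10.2%. It was 18-fold higher in GHMT than in E (4.17, SE 0.62, adjusted p = 0.000112), 4.96-fold higher in AGHMT-labelled cells than in GHMT (2.31, SE 0.49, adjusted p = 0.00692) and 33.4-fold higher in CM than in AGHMT-labelled cells (5.06, SE 0.43, adjusted p = 1.26e-06). The middle step was 1.20 (adjusted p = 0.0739) after GC correction and kept its call in 22 of 24 alternatives.

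Tcap was nearly unread outside cardiomyocytes. Its CPM was 0.0669, 0 and 0.0611 in E, 0, 3.13 and 0.687 in GHMT (7 reads in all), 0.922, 1.43 and 1.09 in AGHMT-labelled cells, and 34.3, 56.2 and 972 in CM. The CM mean of 354 ± 535 rests on the third library, the CM library that correlated least with its group (mean r = 0.885 across genes, which are not independent replicates). Over E, Tcap was 21.1-fold higher in AGHMT-labelled cells (log2 4.40, SE 1.34, adjusted p = 0.0156) on 58 reads against 6, a call lost in 4 of 23 alternatives, among them the omission of E 1 (4.83, adjusted p = 0.063). In GHMT, on 7 reads, it was 29.4-fold over E without passing (4.88, SE 2.03, adjusted p = 0.0555); the call was gained in 7 of 22 alternatives, among them no filter (adjusted p = 3.75e-06), GC correction (8.07, adjusted p = 0.000463) and the omission of CM 1, 2 or 3 (adjusted p = 0.0184, 0.0307 and 0.0016). Between AGHMT-labelled cells and GHMT no difference was detected (log2 −0.48, 95% interval −3.77 to 2.81, adjusted p = 0.847), a difference whose sign changed with total counts (0.06) and after thinning (1.63). CM exceeded AGHMT-labelled cells by 8.25 (SE 1.20, adjusted p = 0.000121), and by 5.32 without GHMT 1 and CM 3. Tcap has the highest GC content of the members, 61.3%.

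Xirp1 and Xirp2, the Xin-repeat genes, behaved differently. Xirp2 stood at 0.134, 0.304 and 0.459 CPM in E, 6.55, 5.73 and 2.06 in GHMT (19 reads in all), 116, 104 and 101 in AGHMT-labelled cells, and 471, 612 and 259 in CM. The groups did not overlap. The step from GHMT to AGHMT-labelled cells was the largest called of the set, 23.1-fold (log2 4.53, SE 0.51, adjusted p = 0.000198), and stayed called in 24 of 24 alternatives, at 3.92 (adjusted p = 4.24e-05) after GC correction. It was 15.9-fold higher in GHMT than in E (3.99, SE 0.61, adjusted p = 0.000137), and CM exceeded AGHMT-labelled cells by 4.18-fold (2.07, SE 0.40, adjusted p = 0.00106). AGHMT-labelled cells had gone 80.3% of the way from E to CM on the log2 scale, against 34.6% for GHMT. Xirp2 shares 168 exonic bases with the antisense gene Gm13601, and whether the counting used strand is not stated in the sources used here.

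Xirp1 had 0 reads in all GHMT libraries and 0, 1 and 1 in E. It stood at 1.23, 3.52 and 0.927 CPM in AGHMT-labelled cells (97 reads in all) and at 43.9, 32 and 156 in CM. Against GHMT, whose floor of 3 counts over the group is the bound, Xirp1 was at least 2.7-fold higher in AGHMT-labelled cells and at least 85.8-fold higher in CM. The fit gave adjusted p = 0.087 for the former and 8.08e-05 for the latter; without AGHMT-labelled 3 or without E 1 the former was 0.0439 or 0.0469, without a filter 0.0167 and with limma on the deposited values 0.00366. Against the 2 reads of E the ratio was 120 (95% counting interval 32.2 to 1000) in AGHMT-labelled cells and 3800 (1050 to 31400) in CM; these intervals cover counting error only. CM exceeded AGHMT-labelled cells 40.4-fold (log2 5.34, SE 0.81, adjusted p = 0.000276).

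Synpo2l stood at 0.318, 0.101 and 0.122 CPM in E, 0, 1.56 and 1.37 in GHMT (5 reads in all), 13.2, 12.6 and 9.43 in AGHMT-labelled cells, and 125, 101 and 160 in CM. Only E and GHMT overlapped. Its step from GHMT to AGHMT-labelled cells was 9.95-fold (log2 3.32, SE 0.62, adjusted p = 0.00381) and was called in 24 of 24 alternatives, at 2.06 (adjusted p = 0.0222) after GC correction. CM exceeded AGHMT-labelled cells 10.9-fold (3.45, SE 0.45, adjusted p = 4.78e-05). GHMT exceeded E by 2.55 (SE 0.82, adjusted p = 0.0182), a call that 4 of 23 alternatives lost, including the omission of GHMT 2 (2.13, adjusted p = 0.171) or GHMT 3 (2.40, adjusted p = 0.0709).

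**Figure D3:**
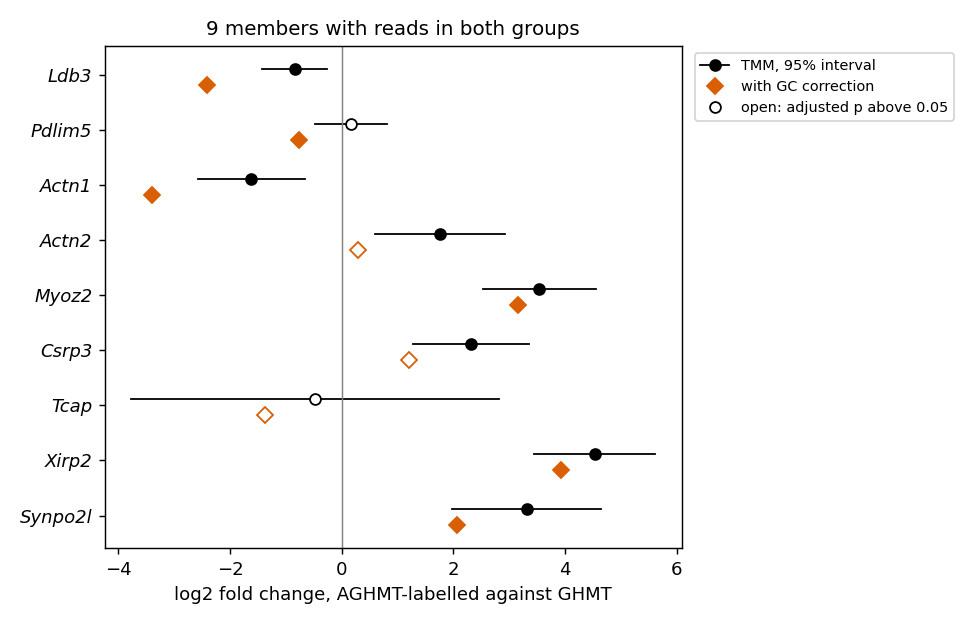
Log2 fold change of 9 members in AGHMT-labelled cells against GHMT (x axis) with TMM scaling (circles, 95% interval) and after GC correction (diamonds); open symbols have an adjusted p above 0.05. Xirp2, Myoz2 and Synpo2l stay higher under both, Actn2 moves from 1.76 to 0.29, and Xirp1, without a read in GHMT, is not drawn.

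The sorted libraries differed from the others in how levels fell with GC content. This touches their comparisons with E and CM as well as that of GHMT with AGHMT-labelled cells. Shares and ratios of members within a library are touched too where the GC contents of the members differ. Over 6187 genes, log2 CPM changed by −2.28, −1.89 and −1.53 per 10 percentage points of GC in the GHMT libraries and by −1.49, −1 and −1.21 in the AGHMT-labelled ones, against −0.38 to 0.86 in CM and −0.64 to 0.49 in E. In CM against GHMT, GC correction moved the share of higher calls from 59.3% to 33.7%. Over all alternatives, the log2 fold change in GHMT against E ran from 3.69 to 7.89 for Actn2 and from 1.06 to 5.58 for Synpo2l. Between the sorted groups, the correction moved the median of all genes from 0.63 to −0.45 and the share of higher calls from 74.3% to 19.3%. Among the members it left Ldb3 (−2.41) and Actn1 (−3.39) lower in AGHMT-labelled cells and turned Pdlim5 to −0.76 (adjusted p = 0.0208). Of the 3 members called higher under both scalings, Myoz2 has 39.7% GC, Xirp2 42.2% and Synpo2l 56.5%. Csrp3 (47.4%) and Actn2 (55.1%), which lost their calls with the correction, lie between Xirp2 and Synpo2l. Xirp1 (57%) and Tcap (61.3%), not called under either scaling, lie above them. The part of GC content in these differences was not tested further. Summed markers of endothelium and macrophages were higher in AGHMT-labelled cells than in GHMT and highest in CM, while those of mast cells and smooth muscle had other patterns. The sum of 6 endothelial markers was 1.31 to 12 CPM in GHMT, with Egfl7 at 0, 52.4 to 62.2 in AGHMT-labelled cells, 382 to 596 in CM and 6.36 to 9.78 in E, and all 6 were higher in CM than in each other group. That of 7 macrophage markers was 1.31 to 6.19 CPM, with Cd68, Adgre1, Itgam and C1qa at 0, 33.6 to 49.9, 84.8 to 148 and 12.4 to 38.8 in the same order. The zeros in GHMT lie at the floor, where 3 reads are 1.56 to 3.93 CPM. Between the sorted groups Egfl7, Cd68 and C1qa did not pass (adjusted p = 0.281, 0.101 and 0.287 by edgeR's quasi-likelihood test). Adgre1 and Itgam did (adjusted p = 0.00287 and 0.0109). The sum of 4 mast cell markers was 65.5 to 162 CPM in GHMT, from Mcpt4 alone. It was 310 to 340 in AGHMT-labelled cells, of which Mcpt4 made 309 to 339, but 6.87 to 10.3 in CM and 0.217 to 0.489 in E. Mcpt4 stood at 0.769 CPM in CM. Kit was at 0 in GHMT and at 1.28 CPM in AGHMT-labelled cells. The sum of 5 smooth muscle markers was 308 to 489 CPM in GHMT, 376 to 580 in AGHMT-labelled cells, 88.2 to 425 in CM and 1090 to 5520 in E. Their part in the differences was not tested.

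Seen as a whole, the make-up of the set turned over from group to group (plot of the make-up of the set). Ldb3, Pdlim5 and Actn1 together held 99.5% ± 0.326 of the summed CPM per kilobase of the 10 members in E, 98% ± 1.29 in GHMT, 82% ± 4.95 in AGHMT-labelled cells and 13.4% ± 6.42 in CM (SD, n = 3 each). The other 7 held 0.522%, 2.02%, 18% and 86.6%. The sum itself was 75.6 CPM per kb in E, 338 in GHMT, 238 in AGHMT-labelled cells and 1400 in CM, so shares do not follow levels. In GHMT the change from E lay largely within the first 3: Ldb3 went from 1.05% to 49.9% and Actn1 from 59.1% to 29.7%. The level of Actn1 did not fall with its share, at 46.7 CPM per kb in E and 104 in GHMT. In AGHMT-labelled cells Myoz2 reached 7.39% ± 2.09 and Xirp2 3.77% ± 0.376. The share of Xirp2 lay in the range of CM (1.02% to 5.67%), but its level was 8.93 CPM per kb against 37.4 in CM. In CM, Myoz2 held 32.6% ± 16.2, Tcap 19.3% ± 25.2 and Csrp3 17.6% ± 6.04, and Tcap alone made up 48.4% of the third CM library.

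**Figure D4:**
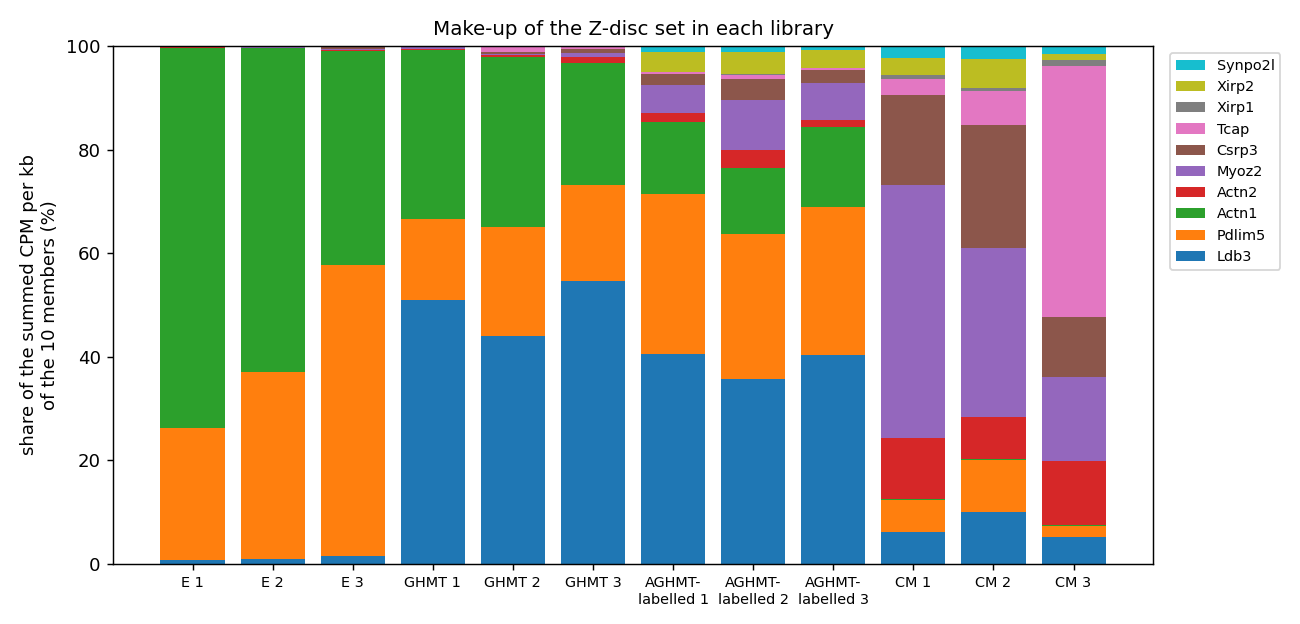
Share of each member in the summed CPM per kilobase of the 10 members (y axis, percent) in each of the 12 libraries (x axis). Ldb3 takes 43.9% to 54.7% in GHMT, the other 7 members reach a mean of 18% in AGHMT-labelled cells, and Tcap takes 48.4% of CM 3.

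Across the 12 libraries, the members that stepped up together were close in pattern. Pearson's r of log2 CPM was 0.99 for Csrp3 with Myoz2 and with Actn2, 0.97 for Myoz2 with Xirp2, and −0.77 for Actn1 with Actn2; these points share 4 groups and are a description. Among all tested genes the closest to Actn2 were Mybpc3 (r = 0.996), Myl2 (0.995) and Mb (0.994), which encode myosin-binding protein C, ventricular myosin light chain and myoglobin. Myoz2 was closest to Hrc, Ckmt2 and Hfe2 (0.996, 0.996 and 0.993), and Csrp3 to Myl2 (0.996). Ldb3, which was at the CM level in GHMT, was closest to the desmosome gene Dsp (0.997), to Rbm24 (0.994) and to Fos (0.993). Xirp2 was closest to Gimap4 (0.995) and Smyd1 (0.992), Synpo2l to Kcnip2 (0.994), Xirp1 to Lrrc4b (0.997), Actn1 to Tgif1 (0.984) and Pdlim5, with the weakest match, to Mitf (0.965).

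Other structural genes of the Z-disc varied in pattern as well. Calls for this list and those below are from the TMM fit, and no values under GC correction or another scaling are given for them. Of 17 tested, 10 passed above E and 3 below E in GHMT (median 2.60; 19.8% and 32.9% of all genes), 13 and 0 in CM (median 4.74; 19.5% and 22.5%), and 4 were higher and 3 lower in AGHMT-labelled cells than in GHMT (median 0.65 against 0.63 over all genes; 13.2% and 4.58%). Sorbs2, an adaptor of actin and Z-disc proteins, had 10.1 CPM in E, 3640 in GHMT, 906 in AGHMT-labelled cells and 512 in CM. It was 4.02-fold lower in AGHMT-labelled cells than in GHMT (adjusted p = 0.00123). Ttn, the giant spring protein that Tcap caps, stepped up from 5.61 CPM in E through 215 and 1220 to 5710 in CM, and was 5.66-fold higher in AGHMT-labelled cells than in GHMT (adjusted p = 0.00017). Nebl, a nebulin relative, stood at 1.09, 106, 281 and 475 CPM in that order (adjusted p = 0.046 between the sorted groups). Smpx, a small muscle protein, was at 0.307, 131, 251 and 487 CPM, and Nexn, an actin-binding protein, at 113, 838, 795 and 1010 CPM. Capzb, the beta subunit of the capping protein CapZ, was 7.12-fold lower in AGHMT-labelled cells than in GHMT (adjusted p = 0.00329), where its libraries ran from 502 to 2030 CPM. Chosen after its values were seen, Flnc (filamin C) stood at 65.8 CPM in E, 2.34 in GHMT, 3.75 in AGHMT-labelled cells and 81.2 in CM. Its libraries ran widely, from 15.3 to 123 in E and from 14.8 to 202 in CM. Palld (palladin), also chosen so, stood at 61.4, 8.05, 13.3 and 62.8 CPM in the same order. Both were lower than E in GHMT (adjusted p = 0.00261 and 0.00355) and in AGHMT-labelled cells (adjusted p = 0.00259 and 0.0104). Des (desmin), also chosen so, was at 3.44, 1.85 and 3.56 CPM in the first 3 groups and at 303 in CM, where its libraries ran from 63.3 to 772.

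Of 13 tested genes of Z-disc signalling and turnover, 8 passed above E and 2 below E in GHMT (19.8% and 32.9% of all genes), 10 and 0 in AGHMT-labelled cells (21.9% and 24.6%), and between the sorted groups 2 were higher and 3 lower in AGHMT-labelled cells (13.2% and 4.58% of all genes; 3 and 1 members of the list without GHMT 1 and CM 3). Ankrd1, a stretch-responsive ankyrin repeat protein, stood at 36.5 CPM in E, 3170 in GHMT, 1770 in AGHMT-labelled cells and 1140 in CM. Trim63 (MuRF1), a muscle ubiquitin ligase, was 6.72-fold higher in AGHMT-labelled cells than in GHMT (adjusted p = 0.00254), and Fbxo32 (atrogin-1) 2.38-fold higher (adjusted p = 0.0137). Ppp3ca, the calcineurin catalytic subunit that Myoz2 is known to bind, was 2.22-fold lower there (adjusted p = 0.0425) and stood at 1030 CPM in GHMT against 91.4 in E.

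Family relatives of the members and focal adhesion genes were counted in the same way. Of 10 tested relatives, 2 passed above E and 5 below E in GHMT, against 19.8% and 32.9% of all genes. Csrp1, the smooth muscle relative of Csrp3, stood at 220 CPM in E against 17.1 in GHMT (12.5-fold lower, adjusted p = 0.000195). Pdlim3 (ALP), a muscle PDZ and LIM protein, was 44.9-fold higher in GHMT than in E (adjusted p = 9.69e-06). Synpo2 (myopodin), the relative of Synpo2l, was 3.32-fold higher in AGHMT-labelled cells than in GHMT (adjusted p = 0.0104). Of 11 tested focal adhesion genes, 6 were lower in each of GHMT, AGHMT-labelled cells and CM than in E (32.9%, 24.6% and 22.5% of all genes). Flna, which cross-links actin at the cortex, was 18.2-fold lower in GHMT (adjusted p = 5.01e-05), and Tln1 (talin) 23.4-fold lower (adjusted p = 5.87e-05). Lims1, a LIM adaptor, was 3.02-fold higher (adjusted p = 0.000726).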

How the data were processed

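The authors' deposited counts of reads per Ensembl gene (HTSeq, after alignment with Bowtie2 2.0.6 to mm10, per the submitters' processing notes) were tested; the authors' deposited normalized signal, made with DESeq per those notes, served as an alternative. Sources used here give neither annotation nor strand setting. Of 43629 identifiers, 42548 matched GENCODE M21. edgeR 4.0.16 (filterByExpr minimum count 10, TMM, robust quasi-likelihood test) was fitted to all 12 libraries over 15059 genes with Benjamini-Hochberg adjustment, threshold 0.05, SE from the F statistic. CPM are on the TMM scale; log2 CPM use a prior count of 2. Levels between genes are per kilobase of exon. Shares were compared by exact permutation. The script was tested on simulated data. Alternatives covered scaling, filters, tools (limma 3.58.1, DESeq2 1.42.0), GC, depth, block and single libraries. Named genes are the members, the forced genes and Myh6, up to 4 per list and comparison by level and size, and the 3 closest in pattern, of which the text gives some and 1 is not reported here; genes with 3 reads or fewer in a group were left out. Members and lists were chosen with earlier results of these data known.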

Additional observations from a re-analysis of the deposited data

How the results depend on the processing

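Across 59 member results and 1404 values under alternatives, 1278 kept their direction and call, 79 lost and 18 gained a call, and 29 changed sign. In GHMT against E, 5 members passed in place of 8 with total counts, where Actn1 was −0.34, Pdlim5 −0.24 and Synpo2l 1.23, none called. With only the 2 groups compared 5 also passed, but there Actn2, Csrp3 and Synpo2l fell under the filter and were not tested. In AGHMT-labelled cells against E, Actn1 was 0.56 after GC correction. Between the sorted groups, leaving out each library gave 4 to 7 members; Pdlim5 was −0.76 after GC correction, and Tcap 0.06 with total counts, 1.63 after thinning, 0.79 with limma and −0.84 to 1.37 with a library left out. In CM against AGHMT-labelled cells, Ldb3 was 0.75 with DESeq2's size factors, 0.05 without mitochondrial genes, 0.47 after thinning, 0.75 with DESeq2, 0.69 with limma and −0.20 to 0.12 with a library left out; Pdlim5 was −0.21 with total counts, −0.03 without a filter, −0.04 with the replicate block, −0.09 with only the 2 groups compared and −0.25 to 0.24 with a library left out, and gained a call as higher in CM with DESeq2's size factors (0.70), DESeq2 (0.70), limma (0.69) and GC correction (0.83). Pdlim5 in CM against GHMT ran from −0.05 to 0.64 with a library left out and gained a call with DESeq2's size factors (0.71), DESeq2 (0.71) and limma (0.74). The cause of these changes was not tested. The labels do not say whether a replicate number marks a shared source. The median r of deviations from group means was −0.035 for equal numbers (−0.72 to 0.13) and 0.015 for unequal ones (−0.76 to 0.79). Deviations within a group sum to 0 and these ranges are wide, so the medians cannot decide it. With the replicate block 5 members passed between the sorted groups in place of 7, with 0 lower. Depth in GHMT limits Actn2, Csrp3, Myoz2, Xirp2, Synpo2l, Tcap and Xirp1, each read at most 24 times in that group.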
